A study of Paeonia lutea x Paeonia suffruticosa with 9 samples.

Results

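The 200 steadiest abundant transcripts of tree peony buds are described here as candidate reference transcripts. They were chosen from the 137758 long-read transcripts that the deposited tables list, which is not the number of non-redundant transcripts the study describes, so shares of all transcripts refer to these tables. A transcript had to reach 20 FPKM (fragments scaled to the length of the transcript and to the total of the library) in all 9 libraries, which 4149 transcripts (3.01%) did. These 4149 are called abundant below. The standard deviation (SD) of log2(FPKM) over the 9 libraries was computed for each, and the 200 smallest were kept. The 26 floral transcripts of the study's own list were left out, of which 1 was abundant. The 200 are 4.82% of the abundant transcripts. As FPKM in these libraries chose them, their small spread and small drift are a description and not a finding.

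The libraries come from floral buds of ‘High Noon’, a reblooming hybrid cultivar of Paeonia lutea and Paeonia suffruticosa, on plants labelled as 5 years old. Stage I buds held a vegetative meristem, stage II buds a floral meristem and stage III buds floral organs, as the authors judged from sections of parallel buds. Each stage has 3 libraries of total RNA enriched for mRNA, S1_1 to S1_3, S2_1 to S2_3 and S3_1 to S3_3, with no treatment. The labels do not say which buds or plants went into a library, so the spread between the 3 libraries of a stage may be partly technical. The libraries hold 20065002 to 25195520 counted fragments each. As a check of the labels, all 3 stage III libraries lay above all 3 stage I libraries for the 9 of 9 transcripts matched to PI, AP1, SEP3, LFY and UFO, genes of floral meristem and floral organ identity, which the study had chosen on these samples. In bulk buds, fewer cells that hold a transcript and less of it per cell cannot be told apart. For the steady transcripts, library S1_3 deviated more from the other 8 libraries than its replicates did. Over all abundant transcripts S1_2 deviated as much as S1_3, with a median size of 0.52 in log2(FPKM) in both. Results that rest on S1_3 are given with and without it.

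A reference transcript is one whose amount changes so little between tissues and stages that other transcripts can be measured against it, as in quantitative PCR. Such transcripts often come from genes that every cell uses, for the cytoskeleton, protein synthesis and protein turnover, but genes of this kind can change with development, so each needs to be checked in the tissue at hand. In a bud that passes from vegetative growth to flower formation the make-up of cell types changes. The tables used here give the 200 identifiers without gene names or sequences, and the study's annotation was not used here, so the transcripts are given by identifier alone and nothing is said of their function. An identifier such as i1_HQ_HNbud_c264498/f25p8/1512 gives a size class (i1), a quality mark of the long-read consensus (HQ for high, LQ for low), a cluster (c264498), the numbers of full-length (f25) and partial (p8) long reads in it, and the length in bp (1512).

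Over the 9 libraries, the SD of log2(FPKM) of the 200 transcripts ran from 0.0439 to 0.140, with a median of 0.120. The median of all abundant transcripts was 0.375. The highest FPKM of a member was 1.09 to 1.43 times its lowest, with a median of 1.28, and the ratio was under 1.2 for 22 members and under 1.3 for 115. For the abundant transcripts the median ratio was 2.14. The last transcript inside the 200 was i1_LQ_HNbud_c89759/f2p2/1667 with an SD of 0.1404. The first outside was i0_HQ_HNbud_c18677/f5p13/851 with an SD of 0.1408, so the limit divides transcripts of nearly equal spread. The lowest FPKM of a member in any library was 20.04, and a transcript with an SD of 0.0955 missed the minimum with a lowest FPKM of 19.8.

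**Figure D1:**
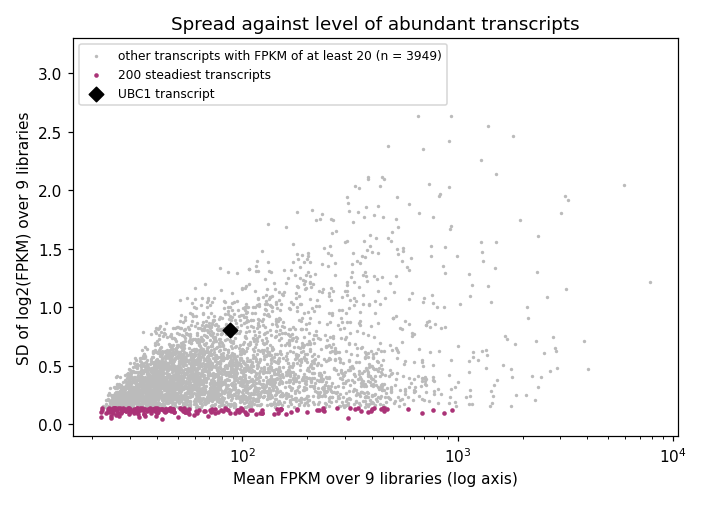
Spread against level of the 4149 abundant transcripts. Each point is a transcript, the x axis is its mean FPKM over 9 libraries on a log scale, and the y axis is the SD of its log2(FPKM). The 200 steadiest (purple) lie under an SD of 0.141 by their choice and reach from a mean FPKM of 21.9 to 944. The UBC1 transcript (black) lies at an SD of 0.806.

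The steadiest of all was i1_HQ_HNbud_c264498/f25p8/1512. Its FPKM was 42.9, 44.5 and 41.6 in stage I, 41.4, 42.4 and 40.9 in stage II, and 43.6, 41.0 and 41.1 in stage III. No stage stood apart from another in these values. Its SD of 0.0439 was close to the 0.0431 that counting error alone gives for its 1019 to 1281 fragments per library. Next came i2_LQ_HNbud_c18656/f1p1/2470, with an FPKM of 25.7, 23.8 and 24.2 in stage I, 24.7, 25.6 and 23.2 in stage II, and 24.3, 25.7 and 24.6 in stage III (SD 0.0527). The stages overlapped for it too, although its cluster holds a single full-length long read. The third, i0_LQ_HNbud_c84081/f1p0/771, was far more abundant and was steady at 315, 298 and 303 in stage I, 304, 308 and 327 in stage II, and 300.1, 330.3 and 304 in stage III (SD 0.0532). Of these first 3 it was the only one whose counts were whole numbers in every library.

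The other members among the 10 steadiest had mean FPKM values of 21.9 to 69.5. For i1_HQ_HNbud_c219159/f16p18/1967 the FPKM was 35.5, 30.8 and 33.9 in stage I, 33.7, 33.1 and 33.0 in stage II, and 33.6, 31.9 and 33.6 in stage III. The means of the 3 stages were nearest to each other among these 10, with an SD of 0.00712 between the stage means on the log2 scale. The faintest of the 10 was i1_LQ_HNbud_c152402/f1p6/1663, at 22.0, 22.1 and 23.5 in stage I, 20.8, 21.9 and 22.3 in stage II, and 22.8, 20.6 and 21.4 in stage III. The most abundant after c84081 was i2_HQ_HNbud_c64797/f5p4/2267, at 65.2, 69.0 and 66.0 in stage I, 69.4, 72.0 and 66.5 in stage II, and 75.7, 68.4 and 73.5 in stage III. Stages I and III overlapped for the former, while for the latter 2 of the stage III libraries lay above every library of stage I. The remaining 4 were i1_HQ_HNbud_c146491/f4p6/1560, i0_LQ_HNbud_c10945/f1p0/771, i1_HQ_HNbud_c120969/f19p5/1824 and i4_LQ_HNbud_c3888/f1p0/4396, with SDs of 0.0651 to 0.0728. The longest member of all, i6_HQ_HNbud_c321/f4p0/6447, came next at rank 11 (SD 0.0733). The geometric mean of the 10 steadiest was 42.4 to 43.8 FPKM in the 9 libraries.

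**Figure D2:**
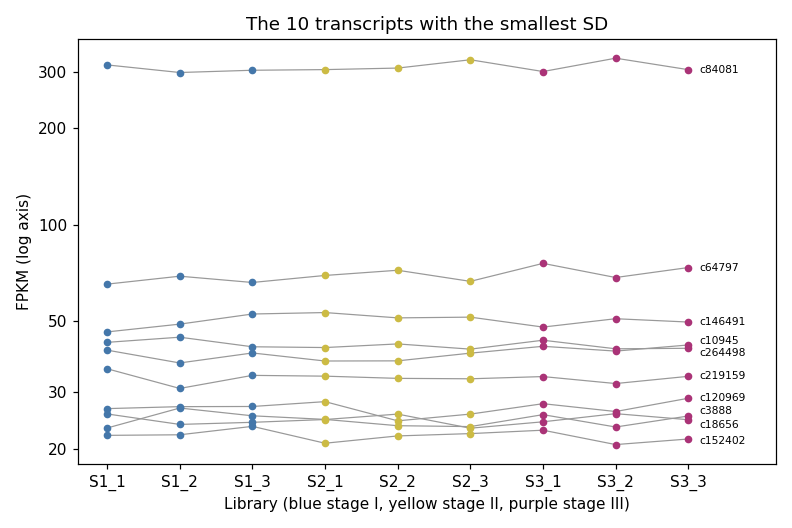
FPKM (log axis) of the 10 transcripts with the smallest SD in each of the 9 libraries. Each point is 1 library, coloured by stage, lines join the values of 1 transcript and carry no order of replicates, and the labels give the cluster number. The values of c84081 lie between 298 and 330.3 and those of the other 9 between 20.6 and 75.7.

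For comparison, UBC1 (cluster c213752, marked LQ) is the only transcript of the study's floral list, which holds differentially expressed transcripts, that was abundant in all libraries. It is matched to a ubiquitin-conjugating enzyme, a family that has served as a source of reference genes in plants. Its FPKM was 61.1, 55.2 and 23.1 in stage I, 95.9, 69.7 and 120 in stage II, and 134, 114 and 117 in stage III. All stage II and III libraries lay above stage I, and its highest value was 5.78 times its lowest (2.42 times without S1_3). Its SD of 0.806 was larger than that of 88.3% of the abundant transcripts, and without S1_3, an alternative chosen after seeing the data, it was 0.494, larger than that of 71.9%. The study had listed UBC1 because it called it as differing in expression among these samples. A large spread of UBC1 was therefore given by that choice, and nothing is read from it about the gene family.

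The 200 covered a wide span of levels but were mostly moderate. Their mean FPKM ran from 21.9 to 944, with a median of 44.1, against a median of 67.2 for the abundant transcripts. A mean of 20 to 50 FPKM was held by 111 members, which is 7.46% of the abundant transcripts in that band. From 50 to 100 there were 42 members (3.46% of the band), from 100 to 200 there were 22 (3.06%) and above 200 there were 25 (3.43%). The abundant transcripts of the lowest band also had the smallest median SD, 0.293, against 0.425, 0.462 and 0.483 in the bands above it. The minimum of 20 FPKM in all 9 libraries itself limits the SD there, since a transcript with a mean near 20 cannot fall far below it. The shares and SDs of the bands are therefore not read as a trait of moderate transcripts. The steadiest member from 50 to 100 FPKM was c146491, at 46.3, 48.9 and 52.6 in stage I, 53.2, 51.2 and 51.4 in stage II, and 47.9, 50.9 and 49.7 in stage III. From 100 to 200 it was i0_LQ_HNbud_c13370/f2p0/631, at 153, 144 and 168 in stage I, 170.1, 166 and 157 in stage II, and 161, 169 and 150.04 in stage III. Stages I and III overlapped in both. Together the 200 took 1.51 to 1.59% of the fragments of a library.

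The 5 members with the highest mean FPKM were all short. The highest mean was that of i0_HQ_HNbud_c98102/f30p0/713, at 1098, 996 and 853 in stage I, 899.7, 904 and 1021 in stage II, and 875, 910.2 and 938 in stage III. For i0_HQ_HNbud_c64756/f22p1/600 the values were 969, 883 and 774 in stage I, 807, 898 and 867 in stage II, and 866, 872 and 854 in stage III. In both, S1_3 had the lowest value of stage I and S1_1 the highest of all libraries. The next were i0_LQ_HNbud_c9034/f1p0/744, i0_LQ_HNbud_c40356/f1p25/523 and i0_LQ_HNbud_c54907/f1p0/728, with mean FPKM values of 767, 683 and 589. In each of these 3, S1_3 was at or near the bottom, with 657, 619 and 484, while the lowest value of any other library was 714, 617 and 562. Their unscaled fragments in S1_1, S1_2 and S1_3 were 7812, 6552 and 6915 for c9034, and 3353, 2932 and 3639 for c40356. For c54907 they were 5796, 5361 and 5010. Of these 3, only c54907 thus had its fewest fragments of stage I in S1_3. Among the 5, c98102 also had its fewest there, with 9821, 8527 and 8423 in S1_1, S1_2 and S1_3. For c64756 they were 6397, 5561 and 5807, with the fewest in S1_2. The lengths of the 5 are 523 to 744 bp.

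The spread of most of the 200 was larger than counting error. The SD that counting alone gives had a median of 0.0428, from 0.0154 to 0.114. Its share of a member's variance had a median of 15.2% and reached 108%. For c10945, at rank 7, the SD of 0.0677 lay under the 0.0704 that counting gives. The pooled SD within stages had a median of 0.104, and the SD between the 3 stage means had a median of 0.0763. For 137 of the 200 (68.5%) the SD between the stage means was under the pooled SD within stages, against 33.8% of the abundant transcripts. A mean of 3 libraries varies less than a single library, so this count does not show that stages differed less than replicates. S1_3 was the highest or the lowest library for 81 of the 200 (40.5%), S1_1 for 63 (31.5%) and S1_2 for 55 (27.5%). A library of stage II or III was so for 24 to 49 (12 to 24.5%). Over the abundant transcripts the shares were 45.8% for S1_3, 23.0% for S1_1, 39.6% for S1_2 and 12.5 to 18.6% for the later libraries. No trait of the 200 is read from these counts. The members' deviations from their own means had an SD of 0.142 in S1_3, 0.123 in S1_1, 0.124 in S1_2, and 0.0863 to 0.107 in the libraries of stages II and III.

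Drift between stages was small in the deposited FPKM, as the choice requires. From stage I to II, the difference of the stage means of log2(FPKM) ran from -0.24 to 0.27, with 102 members up and 98 down. From stage II to III it ran from -0.25 to 0.24 (93 up and 107 down), and from stage I to III from -0.26 to 0.27 (98 up and 102 down). The median sizes were 0.088, 0.073 and 0.097, against 0.49, 0.16 and 0.55 for the abundant transcripts. Even so, the FPKM ranges of 2 stages did not overlap for some members. This was so for 29 members between stages I and II, where 55.2% of the abundant transcripts lay apart, for 46 between stages II and III (36.3%), and for 55 between stages I and III (60.8%). For 112 of the 200 the stages overlapped in all 3 comparisons, as they did for 23.3% of the abundant transcripts. These counts use the libraries that chose the members and nothing is read from them.

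The members with the largest drift show what the limit lets through. From stage I to II, i1_LQ_HNbud_c209398/f1p9/1006 rose most, from 216, 194 and 227 to 242, 260 and 262 FPKM, and stood at 241, 246 and 238 in stage III. The transcript i1_LQ_HNbud_c127267/f1p4/1519 had the largest fall, from 40.7, 41.3 and 44.2 to 39.2, 35.5 and 32.4, and stood at 38.4, 39.0 and 36.7 in stage III. In both, stages I and II did not overlap. From stage II to III, i1_LQ_HNbud_c23932/f1p3/1601 went from 36.8, 36.4 and 38.2 to 48.5, 40.8 and 42.8, and i0_HQ_HNbud_c883/f7p6/918 from 32.4, 34.6 and 35.1 to 28.1, 30.3 and 27.4. Their differences of 0.27, -0.24, 0.24 and -0.25 on the log2 scale are the largest of the 200 in either direction for these 2 comparisons.

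The scaling between libraries decided where the 200 as a whole lay. FPKM is scaled to the total of each library, whereas TMM (trimmed mean of M values, from edgeR) sets a library by its bulk of transcripts. The TMM factors of the stage I libraries were 0.932 to 0.949, and those of the other libraries 0.987 to 1.09. With FPKM divided by these factors, the median drift of the 200 from stage I to II was -0.13 in place of 0.0011, with 171 down and 29 up. From stage I to III it was -0.14 in place of -0.0094, with 167 down and 33 up, and from stage II to III it stayed at -0.011, against -0.014 in FPKM. The same factors moved the median of all abundant transcripts to -0.13 from stage I to II and to -0.15 from stage I to III. A factor per library moves every transcript by the same amount, so these shifts follow from the factors and are no result about the 200. Ratios of 1 member to another do not depend on this scaling.

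**Figure D3:**
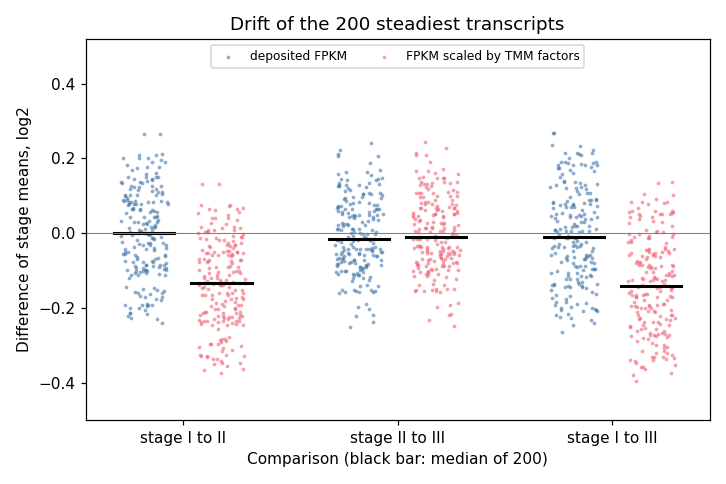
Difference of stage means on the log2 scale for the 200 transcripts in the 3 comparisons. Points are transcripts, blue for the deposited FPKM and red for FPKM divided by TMM factors, and black bars are medians. In FPKM the medians lie between -0.014 and 0.0011, and with TMM those from stage I lie at -0.13 and -0.14.

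All transcripts with enough reads were tested between stages with edgeR's quasi-likelihood test on the rounded counts, and a transcript was called at a Benjamini-Hochberg q value under 0.05. As the same libraries chose the 200, their counts are given as a description. From stage I to II edgeR called 0 of the 200, with 0 at an unadjusted p under 0.05, where 20.2% of the 64662 transcripts tested were called. DESeq2 and limma also called 0, with 24.2% and 31.6% of all transcripts they tested called. From stage II to III edgeR called 0, with 1 at an unadjusted p under 0.05, against 2.17% of 64971, and DESeq2 and limma again 0, against 7.62% and 3.98%. From stage I to III edgeR called 0, with 6 at an unadjusted p under 0.05, against 26.6% of 65124, while DESeq2 called 3 (background 28.1%) and limma 0 (38.5%). With all 9 libraries in 1 fit, edgeR called 2 from stage I to II (background 30.1%) and 5 from stage I to III (33.2%), all of them lower in the later stage. Without S1_3, edgeR called 22 of the 200 from stage I to III, all of them lower in stage III, where 42.3% of all transcripts tested were called. In the test's TMM-scaled counts the median log2 fold change of the 200 from stage I to III was -0.14 with all libraries. The median without S1_3 is not given here, and the part of the scaling in these 22 calls was not tested. At the study's own criterion (a fold change over 2 and a q value under 0.001), edgeR called 0 of the 200 in each comparison, against 0%, 0.00616% and 0.00614% of all transcripts tested.

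A measure of stability apart from the choice is the value in a library that took no part in the choice. The choice was therefore repeated 9 times, each time on 8 libraries, and the log2(FPKM) of the chosen 200 in the library held out was set against their mean in the other 8. The median size of this deviation was 0.087 to 0.11 in the libraries of stages II and III, and 0.16 in S1_1 and in S1_2. In S1_3 it was 0.32, the largest of the 9. Within the 8 libraries that chose them, the same transcripts deviated by a median of 0.063 to 0.078. All transcripts that reached 20 FPKM in the 8 libraries of the choice deviated by 0.21 to 0.27 in stages II and III. In S1_1, S1_2 and S1_3 they deviated by 0.44, 0.52 and 0.52. The steady transcripts therefore deviated by 0.31 to 0.53 times as much as all these transcripts in 8 libraries, and by 0.62 times as much in S1_3. These ratios have no test, since each library is a single one.

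**Figure D4:**
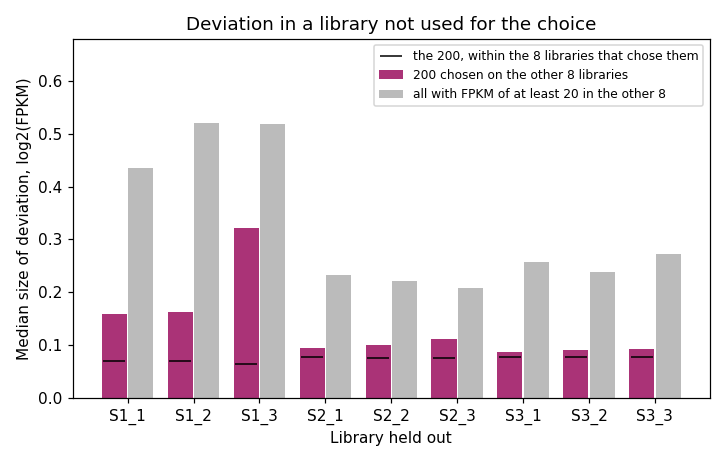
Median size of the deviation of log2(FPKM) in the library held out from the mean of the other 8, for each of the 9 libraries. Purple bars are the 200 transcripts chosen on the other 8 libraries, grey bars all transcripts that reached 20 FPKM in those 8, and black marks the deviation of the 200 within the libraries that chose them. The purple bar is highest for S1_3, at 0.32, and lies at 0.16 or below in the other 8 libraries.

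In S1_3, 148 of the 200 transcripts chosen without it lay within 0.5 of the mean of the others on the log2 scale, and 10 lay more than 1 away. In the other 8 libraries 193 to 200 lay within 0.5 and at most 1 was more than 1 away. The farthest below was i0_HQ_HNbud_c8432/f6p14/801, at 51.1 FPKM in S1_3 against 128 and 147 in S1_1 and S1_2 and 132 to 142 in the later stages. The farthest above was i1_HQ_HNbud_c192138/f27p1/1705, at 478 in S1_3 against 164 and 161 in the other stage I libraries and 163 to 189 in the later stages. Over the other 8 libraries their SDs were 0.0648 and 0.0902, and with S1_3 they ranked 2682 and 2801 of the abundant transcripts. Of the 200, 119 were lower in S1_3 and 81 higher. Those under 1000 bp were lower in 53 of 72 cases, with a median of -0.25, and those of 2000 bp and over in 27 of 41, with a median of -0.055, while of those between 39 of 87 were lower (median 0.068). Other libraries also showed a difference by length: in held-out S2_3 the medians of the short and the long transcripts were 0.10 and -0.099, and in S1_1 they were 0.13 and 0.074. The fragment length estimated from the ratio of counts to FPKM was 247 bp in S1_3 and 279 to 290 bp in the others. Its part in these deviations was not tested.

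Only 101 of the 200 transcripts chosen without S1_3 were among the 200 chosen with it, while leaving out any other library kept 152 to 187. The 99 that were lost deviated in S1_3 by a median size of 0.51 and the 101 that were kept by 0.17. The HQ mark was held by 54.5% of either. Among the members chosen with S1_3, the highest there was i4_HQ_HNbud_c27/f9p0/4478, at 41.8 against 29.8 to 34.4 FPKM in the other libraries. The lowest was the shortest member, i0_HQ_HNbud_c25187/f4p0/375, at 360.2 against 427 to 498. This holds for FPKM alone: its unscaled fragments were 1003 in S1_3, against 990 in S1_1 and 848 in S1_2. The part of fragment length in this was not tested.

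Of the 200, 86 were chosen again each time 1 of the 9 libraries was left out, and 64 of these also with TMM and with RLE factors (the median of ratios used by DESeq2) in place of the library total. All of the 10 steadiest were among the 64. Each repeat reused libraries that chose the 200, so these counts describe the choice and do not test stability. Scaled by TMM, the SDs of these 10 were 0.0719 to 0.123, the smallest being that of c146491, next to c84081 with 0.0800. The 64 had a median FPKM of 43.1 and a median length of 1363 bp, and 34 of them were marked HQ.

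The pairing of members was also described, since references are often used in pairs or small sets. The mean SD of a member's log2 ratio to every other member, the M value of the geNorm procedure, ran from 0.122 to 0.186 with a median of 0.160, and it does not depend on the scaling of libraries. The lowest M was that of c84081. Over the 19900 pairs, the SD of the log2 ratio ran from 0.0344 to 0.264. The closest pair was i1_HQ_HNbud_c8003/f3p9/1730 and i4_LQ_HNbud_c1952/f1p3/4740. The former had 43.1, 43.1 and 33.7 FPKM in stage I, 41.4, 38.2 and 38.8 in stage II, and 38.9, 39.1 and 36.1 in stage III, and the latter 32.9, 30.6 and 24.95, then 30.2, 27.7 and 27.5, then 28.1, 27.9 and 25.9. Both were lowest in S1_3, so that their ratio stayed at 1.31 to 1.41 in all 9 libraries, although the 2 transcripts ranked only 84 and 116 by their own SD. Their identifiers give lengths of 1730 and 4740 bp, and both had counts that were not whole.

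The marks in the identifiers come from the long reads, which the choice did not use. Of the 200, 104 (52%, 95% Wilson confidence interval 45.1 to 58.8%) were marked HQ, against 48.7% of the abundant and 12.9% of all transcripts. The share of HQ transcripts was thus far above that of all transcripts and near that of the abundant ones. A single full-length read stood behind 88 members (44.0%), against 44.9% of the abundant and 84.6% of all transcripts, and 10 or more behind 48 (24.0%), against 22.4% and 2.15%. None of the 104 HQ members rested on 1 full-length read, and among all 17839 HQ transcripts there were 0. Of the 96 LQ members, 88 did. The HQ members had a median SD of 0.120 and the LQ members of 0.119, and the abundant transcripts of either mark had 0.376 and 0.374. With the abundant transcripts divided by SD into 5 classes of equal size, the HQ share was 51.8% in the steadiest class, 47.6%, 46.8% and 47.2% in the next 3, and 50.1% in the least steady. The interval covers counting error only.

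**Figure D5:**
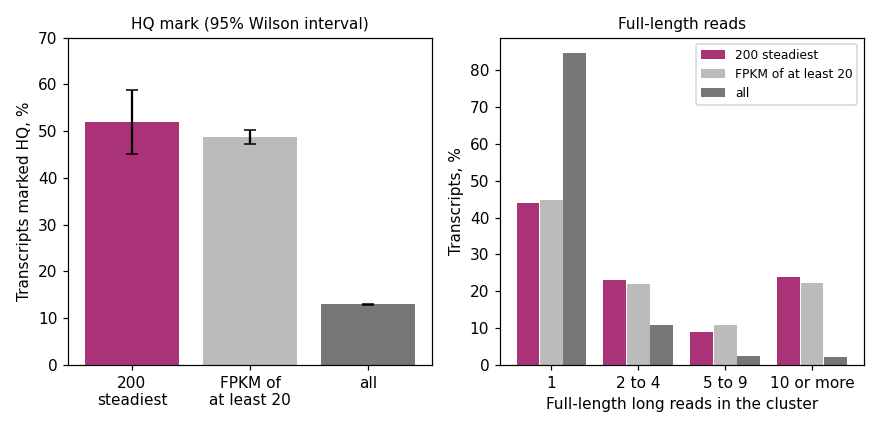
Marks in the identifiers of the 200 steadiest, the 4149 abundant and all 137758 transcripts. The left plot shows the percent marked HQ with 95% Wilson confidence intervals, and the right plot the percent of transcripts by the number of full-length long reads. The 200 lie at 52% HQ and the abundant at 48.7%, and both lie far from the 12.9% of all transcripts.

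The most full-length reads, 170, belonged to i0_HQ_HNbud_c99093/f170p0/813. Its FPKM was 357, 352 and 372 in stage I, 388, 427 and 408 in stage II, and 429, 436 and 437 in stage III. The values of each later stage lay above those of stage I, and the difference from stage I to III, 0.27 on the log2 scale, was the largest rise of the 200 for that comparison. With 167 full-length reads, i1_HQ_HNbud_c264358/f167p39/1054 had 398, 331 and 466 in stage I, 383, 438 and 403 in stage II, and 413, 429 and 416 in stage III, so its spread lay within stage I. The third, i1_HQ_HNbud_c192163/f77p20/1667 with 77 reads, ranked 13 and had 61.3, 61.6 and 53.1 in stage I, 59.2, 57.3 and 59.4 in stage II, and 62.5, 64.4 and 59.9 in stage III. Many full-length reads thus went with drift in the first, with scatter among replicates in the second and with a small SD in the third.

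The 200 were 375 to 6447 bp long with a median of 1151 bp, against medians of 1038 bp for the abundant and 1654 bp for all transcripts. Of the members, 80 were under 1000 bp (40.0%, against 46.7% of the abundant) and 36 had 2000 bp or more (18.0%, against 11.7%). The members of 20 to 50 FPKM had a median length of 1555 bp and those above 200 FPKM of 762 bp. The 50 steadiest had a median of 1536 bp and the last 50 of 1058 bp, and 27 and 19 of them were marked HQ. The longest member, c321, had 36.3, 37.2 and 34.9 FPKM in stage I, 38.6, 34.6 and 33.0 in stage II, and 34.3, 33.4 and 34.8 in stage III, so that all stage I libraries lay above all stage III libraries by a narrow margin. The counts of 183 members (91.5%) were not whole in at least 1 library (tolerance 0.005), against 92.9% of the abundant transcripts. RSEM gives such counts where a read matches more than 1 transcript, so the levels of these members are estimates of how shared reads divide.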

How the data were processed

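Paired reads of 9 bud libraries were filtered with ng_QC, mapped with bowtie2 to the polished long-read transcripts and counted with RSEM by the authors. No genome was used, and strand and the versions of these tools are not given in the sources used here. For each library the authors deposited RSEM's expected counts, which hold fractions and carry no scaling. Beside them stand the deposited FPKM values, scaled for effective transcript length and library total. No library was left out. The PacBio reads were not analysed here.

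The members and the lists were chosen with earlier results of these data known. Members had an FPKM of at least 20 in all 9 libraries and the 200 smallest SDs of log2(FPKM), with ties broken by identifier. The transcripts named are the 10 with the smallest SD, the 5 with the highest mean, the 3 with the most full-length reads, the steadiest in each band of FPKM, the largest rise and fall between stages I and II and between stages II and III, the highest and lowest in S1_3, the shortest and the longest, those at the limit, the closest pair and UBC1. The 2 farthest from the others in held-out S1_3 were chosen after their values were seen. Expected counts were rounded, kept by filterByExpr (minimum count 10, minimum total 15) and compared by the quasi-likelihood test of edgeR, TMM-scaled, over the 6 libraries of 2 stages. The scripts were tested on simulated data. Alternatives were DESeq2, limma with a trend on log2(FPKM + 1), RLE and upper quartile factors, no filter, a block for the replicate number, a single fit of all 9 libraries, other FPKM minimums and measures of spread, and each library left out. The tests ran in R 4.3.3 with edgeR 4.0.16, limma 3.58.1 and DESeq2 1.42.0. The descriptions ran in Python 3.11.15 with pandas 2.3.3, SciPy 1.17.1, NumPy 2.4.6 and, for plots, Matplotlib 3.10.9. Totals of 20065002 to 25195520 fragments gave members 165 to 8887 fragments per library on average, and counting limits allow for no error beyond sampling of fragments.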

Additional observations from a re-analysis of the deposited data

How the results depend on the processing

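Of the 200 transcripts, 117 were chosen again with an FPKM minimum of 10, 75 with a minimum of 1 and 78 with a minimum of 50. With TMM factors 123 were chosen again, with RLE factors 118, with upper quartile factors 75 and with the pooled SD within stages 58. With a library left out it was 101 to 187, the fewest without S1_3. The median drift from stage I to II was -0.13 with TMM and -0.14 with RLE factors, and that between stages I and III -0.14 and -0.16. With a library left out, the medians were -0.015 to 0.028, -0.022 to 0.0091 and -0.030 to 0.015 for stages I to II, II to III and I to III. With all 9 libraries in 1 fit, edgeR called 2 members between stages I and II and 5 between stages I and III, and DESeq2 called 3 in the latter, all of them lower in the later stage. With S1_3 left out, 22 members were called from stage I to III, in a fit that called 42.3% of all transcripts. With any other library left out, 0 were called, in fits that called 8.28 to 20.7% of all transcripts. In the other comparisons the count was 0 with each library left out. These fits called 3.2 to 32.5% of all transcripts from stage I to II and 0.0636 to 1.69% from stage II to III. The replicate number as a block gave 0 members in each comparison. It called 0 of all transcripts from stage I to II, 5 (0.0077%) from stage II to III and 7885 (12.1%) from stage I to III. Its zeros in the comparisons with stage II thus say little about the members. Same-numbered libraries had correlations of -0.20 to 0.12, over 0.1 in 2 of 9 pairs. These values do not measure how alike 2 whole libraries are. They show no pairing by number, but with 3 libraries per stage they cannot exclude one. The median deviation in a held-out library became 0.14, 0.12, 0.12 and 0.082 in S2_1, S2_2, S2_3 and S3_3 with TMM factors. With an FPKM of at least 50 it became 0.11 in S2_1 and in S2_2, and 0.097, 0.10 and 0.10 in S3_1, S3_2 and S3_3, while in S1_3 the values were 0.31 and 0.37. The excess of the HQ share was 39.1 percentage points over all transcripts and 3.29 over the abundant ones. Without S1_3, chosen after seeing the data, it was 41.6 over all transcripts, and the median M of the members was 0.149. The causes of these changes were not tested. The libraries that chose the members cannot test their stability.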
